A study of Mus musculus with 18 samples.

Results

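The Bcl2 family was followed over 10 of its genes in mouse oocytes that carried Zfy transgenes. The genes were listed by name, and every array probe that the annotation gives to one of them was taken. That gave 29 of the 45281 probes, for 9 of the 10 genes: Bcl2, Bcl2l1, Bcl2l10, Mcl1, Bak1, Bbc3, Pmaip1, Bcl2l11 and Bid. No probe is named Bax in the annotation used here, so Bax was not analysed. Probes went into the tests when at least 3 of the 18 arrays detected them, with a detection p-value under 0.05. That held for 16 probes of 8 genes, of 23951 probes tested in all.

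The study asked what Zfy1 and Zfy2, zinc finger genes of the Y chromosome, do to the transcripts of germinal vesicle (GV) oocytes, which are fully grown oocytes held before the first meiotic division. The 6 genotypes, with 3 biological replicates each, were XX,Zfy2+Eif2s3y with a single-copy Zfy2 transgene and, in a proportion of the cells, a multiple-copy Eif2s3y transgene; XX,Zfy2 with the single-copy Zfy2 transgene; XX,Zfy1-hi with a high-copy Zfy1 transgene; XX,Zfy1-lo with a single-copy Zfy1 transgene; XX,Zfy2-nf with a non-functional Zfy2 transgene; and XX with no transgene. The submitters call the first of these contaminated. All females were MF1 outbred albino animals 4 weeks old, sampled 45 to 48 hours after PMSG, a hormone that makes follicles grow. The cumulus cells were stripped off, and about 100 oocytes from at least 2 females of a genotype made a pool. The promoters that drive the transgenes, and the number of founder lines, are not given in the sources used here. The genotypes are called Zfy2+Eif2s3y, Zfy2, Zfy1-hi, Zfy1-lo, Zfy2-nf and XX below.

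The arrays lay on 3 slides in 2 labelled batches. Batch 1 was slides 1 and 2, and XX, Zfy2-nf and Zfy1-lo each had 2 arrays on slide 1 and 1 on slide 2, while all 3 Zfy2+Eif2s3y arrays lay on slide 2. Batch 2 was slide 3, with the Zfy2 arrays in the upper positions and the Zfy1-hi arrays in the lower ones. Tests were therefore made within a batch only, and between batches genotype and batch cannot be told apart. Each array detected 18140 to 20292 probes (40.1 to 44.8%), and replicates correlated across the tested probes at r = 0.967 to 0.987. The Zfy2 probe was detected on no XX or Zfy2-nf array and on every array of the other 4 genotypes, at 5.49 to 6.20 (log2 intensity) in Zfy2+Eif2s3y, 5.59 to 6.18 in Zfy2, 6.91 to 7.24 in Zfy1-hi and 5.17 to 5.62 in Zfy1-lo. It therefore did not separate Zfy2 from Zfy1 transgenes. A Zfy1 probe, ILMN_1227623, was detected on all 6 arrays of the Zfy1 genotypes and on 1 Zfy2+Eif2s3y array, and an Eif2s3y probe, ILMN_1241001, only on the 3 Zfy2+Eif2s3y arrays. The other Zfy1 probe, ILMN_1224484, was detected on all 18 arrays, and the other Eif2s3y probe, ILMN_1215914, on no Zfy2+Eif2s3y array but on all 3 Zfy2, all 3 Zfy1-hi and 2 Zfy2-nf arrays. The 15 measured oocyte markers averaged 10.72 to 11.07 over the arrays.

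Proteins of the Bcl2 family decide whether the outer mitochondrial membrane is opened to release cytochrome c, which starts the caspase cascade of apoptosis. Bcl2, Bcl2l1 (Bcl-x), Bcl2l10 (Diva or Boo) and Mcl1 hold the membrane closed, although mouse Bcl2l10 has been described in both roles. Bax and Bak1 form the pores. Bcl2l11 (Bim), Bbc3 (Puma), Pmaip1 (Noxa) and Bid carry a single BH3 domain and either activate the pore formers or bind and block the anti-apoptotic proteins. In the ovary, Bbc3 and Pmaip1 are known as targets of the p63 protein in oocytes whose DNA is damaged, and Mcl1 is known to be needed for oocyte survival.

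Bcl2l11 was the member whose probes were called in both comparisons of a Zfy2 transgene, so its promoter is printed. RefSeq gives 2 windows for Bcl2l11, and the one printed is the 250 bases before the upstream transcript start, at chr2:128125788-128126037 on the plus strand of GRCm38.p6, and 72% of its bases are G or C. Capitals mark GTAAACA, the core of the binding site of Foxo proteins, a family for which Bcl2l11 is a known target gene.

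Bcl2l11: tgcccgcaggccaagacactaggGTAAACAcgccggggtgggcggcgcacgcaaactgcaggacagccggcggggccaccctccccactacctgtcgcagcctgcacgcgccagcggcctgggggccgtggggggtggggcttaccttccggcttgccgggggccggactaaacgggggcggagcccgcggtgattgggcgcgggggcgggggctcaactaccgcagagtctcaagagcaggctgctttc

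The match lies 227 to 221 bases before the start, and the other Bcl2l11 window does not hold this motif on either strand. The letters GTAAACA or their reverse complement were present in 3.17% of 32851 RefSeq windows of the same length, so a match is uncommon but is not a site by itself. The palindrome AGGCCT, the core of the sequence bound by Zfx and Zfy proteins, is in neither Bcl2l11 window and is in 8.7% of all windows. Over the 13 windows of 8 member genes that matched the RefSeq table by symbol, the only other matches were in Bbc3, where 1 window holds AGGCCT and another holds GTAAACA.

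Bcl2l11, the BH3-only protein Bim, was lower in oocytes with Zfy2+Eif2s3y than in XX and Zfy2-nf oocytes. On probe ILMN_2590638 the log2 intensity was 8.74, 8.48 and 8.89 in Zfy2+Eif2s3y, against 9.30, 9.56 and 9.48 in Zfy2-nf and 9.13, 9.53 and 9.64 in XX. All 3 Zfy2+Eif2s3y arrays lay below all 6 control arrays. The change was -0.74 ± 0.140 (log2, SE), a 1.67-fold lower signal with a 95% interval of -1.03 to -0.44 (limma, adjusted p = 0.00324). Each array read RNA pooled from many oocytes, so fewer cells with a transcript and less of it per cell cannot be told apart.

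A second Bcl2l11 probe, ILMN_3157568, gave 6.68, 6.38 and 6.81 in Zfy2+Eif2s3y, against 7.22, 7.66 and 7.26 in Zfy2-nf and 7.84, 7.40 and 7.42 in XX. The groups again did not overlap. This probe was lower by 1.79-fold, at -0.84 ± 0.177 (log2, SE; limma, adjusted p = 0.00659). Its change was smaller without background correction, at -0.52 (adjusted p = 0.00563), and in the authors' matrix, at -0.56 (adjusted p = 0.00528). The third probe, ILMN_1229255, was dimmer and read 5.29, 4.98 and 4.68 in Zfy2+Eif2s3y, against 5.55, 5.52 and 5.69 in Zfy2-nf and 7.31, 5.84 and 5.34 in XX. It was not detected on the third Zfy2+Eif2s3y array, where its detection p was 0.138. Its groups did not overlap, but XX alone spanned from 5.34 to 7.31, and the change of -0.89 ± 0.284 did not pass (limma, adjusted p = 0.0601). The fourth probe, ILMN_3078327, was detected on 2 arrays and was not tested.

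The Zfy2 transgene without Eif2s3y was on another slide and was set against Zfy1-hi, so no array was shared with the comparison above. Probe ILMN_3157568 read 7.28, 6.88 and 6.56 in Zfy2 oocytes, against 7.92, 7.81 and 8.11 in Zfy1-hi oocytes. Every Zfy2 array was below every Zfy1-hi array, and the change was -1.04 ± 0.204 (log2, SE), or 2.06-fold lower with an interval of -1.48 to -0.61 (limma, adjusted p = 0.00606). Probe ILMN_2590638 read 9.35, 9.30 and 8.99 in Zfy2, against 9.71, 9.74 and 9.61 in Zfy1-hi. Those arrays did not overlap either, while the change of -0.47 ± 0.161 did not pass (limma, adjusted p = 0.107). Probe ILMN_1229255 read 5.44, 5.23 and 5.26 in Zfy2, against 6.20, 6.30 and 6.17 in Zfy1-hi, a change of -0.91 ± 0.328 (limma, adjusted p = 0.126). With only the compared genotypes in the fit its SE was 0.119 (limma, adjusted p = 0.0121), while ILMN_2590638 still did not pass (adjusted p = 0.108). The control here carries a Zfy1 transgene of its own, so the difference is between both transgenes and not from an oocyte without one.

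Over all 6 genotypes the mean of ILMN_2590638 was 8.71 ± 0.21 in Zfy2+Eif2s3y (SD, n = 3), 9.21 ± 0.20 in Zfy2, 9.69 ± 0.07 in Zfy1-hi, 9.57 ± 0.20 in Zfy1-lo, 9.45 ± 0.13 in Zfy2-nf and 9.43 ± 0.27 in XX. From the highest mean down, the order was Zfy1-hi, Zfy1-lo, Zfy2-nf, XX, Zfy2 and Zfy2+Eif2s3y. Neighbours in that order overlapped, except that all Zfy2+Eif2s3y arrays lay below the lowest Zfy2 array of the other batch. The means of ILMN_3157568 were 6.62 ± 0.22 in Zfy2+Eif2s3y, 6.90 ± 0.36 in Zfy2, 7.95 ± 0.15 in Zfy1-hi, 7.47 ± 0.30 in Zfy1-lo, 7.38 ± 0.25 in Zfy2-nf and 7.55 ± 0.25 in XX. Here the order was Zfy1-hi, XX, Zfy1-lo, Zfy2-nf, Zfy2 and Zfy2+Eif2s3y, and neighbours overlapped. Both probes thus placed the 2 genotypes with a functional Zfy2 transgene at the bottom, though the order across batches was not tested. Zfy2+Eif2s3y also carries Eif2s3y in a proportion of the cells and is called contaminated. In that genotype Zfy2, Eif2s3y and the contamination cannot be told apart. In Zfy1-lo against XX the changes were 0.14 and -0.09, with intervals of -0.20 to 0.48 and -0.52 to 0.35. In Zfy2-nf against XX they were 0.02 and -0.18, with intervals of -0.32 to 0.36 and -0.61 to 0.26.

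**Figure D1:**
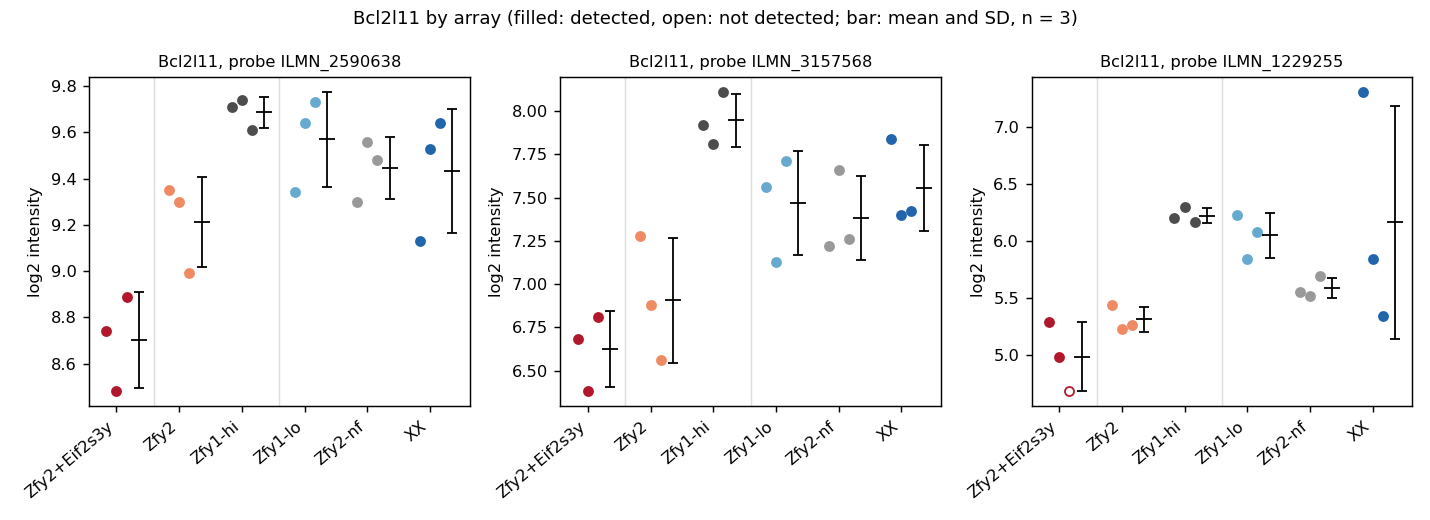
Log2 intensity of the 3 tested Bcl2l11 probes on each of the 18 arrays, by genotype, with Zfy2 and Zfy1-hi in batch 2 and the others in batch 1; filled points were detected, open points were not, and bars are the mean and SD (n = 3). The Zfy2+Eif2s3y arrays lie below all Zfy2-nf and XX arrays on every probe, and the Zfy2 arrays lie below all Zfy1-hi arrays.

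The Bcl2l11 calls were lost under a few settings. On slide 2 alone (3 Zfy2+Eif2s3y arrays against 1 Zfy2-nf and 1 XX array) the changes were -0.60 on ILMN_2590638 (limma, adjusted p = 0.169) and -0.92 on ILMN_3157568 (adjusted p = 0.0815), while ILMN_1229255 passed at -1.52 (adjusted p = 0.045). Without the second Zfy2+Eif2s3y array ILMN_3157568 was at -0.72 (limma, adjusted p = 0.0531). With the upper or lower slide position as a covariate, estimated from batch 1 and chosen after the data were seen, the Zfy2 change on ILMN_3157568 was -1.04 (limma, adjusted p = 0.0584).

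Markers of granulosa and cumulus cells, the other ovarian cells a pool could hold, moved with these groups in part. Of 17 such genes, 13 had a probe and 9 were measured, while Ptx3 and Star were detected on no array. At least 1 probe of Nr5a2 and of Kitl was detected on all 18 arrays, of Inhba on 17, of Has2 on 16 and of Fshr on 12. Of the 9, limma called 2 lower in Zfy2+Eif2s3y and 1 lower in Zfy2 against Zfy1-hi. A gene counts as lower where at least 1 of its probes was called lower and none was called higher. By this count 6.85% of all 12184 measured genes were lower in Zfy2+Eif2s3y and 4.65% in Zfy2 against Zfy1-hi. The median change of the 9 was 0.18 and 0.07 in these comparisons. The mean level over the 9 was 6.64, 5.67 and 6.02 in Zfy2+Eif2s3y, against 5.95 to 6.35 over the 6 Zfy2-nf and XX arrays, and 5.59 to 5.68 in Zfy2, against 5.79 to 5.86 in Zfy1-hi. The first Zfy2+Eif2s3y array was high in Inhba (8.65) and Hsd3b1 (6.97), and without it the Bcl2l11 changes were -0.75 on ILMN_2590638 (limma, adjusted p = 0.0155) and -0.87 on ILMN_3157568 (adjusted p = 0.0258). Cyp11a1, the enzyme that makes pregnenolone from cholesterol, changed on ILMN_2467151 by -1.63 ± 0.211 in Zfy2+Eif2s3y (limma, adjusted p = 1.34e-04), while its other probes ILMN_2581647 and ILMN_2634367 were at 0.33 (adjusted p = 0.251) and 0.62 (adjusted p = 0.0689). In Zfy2 against Zfy1-hi the first changed by -1.68 ± 0.243 (adjusted p = 6.03e-04) and the others were at 0.14 and -0.09. Ptgs2 was also called lower in Zfy2+Eif2s3y, at -0.56 ± 0.160 on ILMN_1231600 (limma, adjusted p = 0.0382), a dim probe detected on 10 arrays. It read 4.45, 4.47 and 4.74, against 4.92, 4.91 and 4.60 in Zfy2-nf, which overlap, and 5.58, 5.64 and 5.03 in XX. The other Ptgs2 probe was detected on no array. The mean of the 15 measured oocyte markers was 10.87 to 10.94 in Zfy2+Eif2s3y, against 11.02 to 11.07 in Zfy2-nf and up to 11.04 in XX, and 10.72 to 10.82 in Zfy2, against 10.82 to 10.92 in Zfy1-hi. It was lower on every Zfy2+Eif2s3y array than on all 6 of these controls. The part of cell types or of overall oocyte marker level in the Bcl2l11 result was not tested. None of the 5 measured stroma and theca genes and not the 1 measured blood gene was called in any of the 4 comparisons by limma.

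The probes most like Bcl2l11 ILMN_3157568 over the 18 arrays, after each slide's mean was subtracted, were named as a description. They were Chst11 (Pearson r = 0.962), a chondroitin sulfotransferase; Aldh1a2 (r = 0.953 and 0.922 on 2 probes), which makes retinoic acid; Phf6 (r = 0.953), a chromatin protein; and Cyp11a1 (r = 0.924). These arrays share their slides and both Zfy2 contrasts. The probes were picked for likeness to a probe called in both contrasts, so their own changes there follow in part from that choice. Those changes are given as a description and are not separate evidence. Chst11 changed by -1.67 in Zfy2+Eif2s3y (limma, adjusted p = 1.52e-04) and by -1.44 in Zfy2 against Zfy1-hi (adjusted p = 0.00267). Phf6 changed by -0.81 (adjusted p = 0.00122) and -0.91 (adjusted p = 0.00218) in the same order.

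Pmaip1, the BH3-only protein Noxa, was close to background in most oocytes, and both of its tested probes were detected on all 3 Zfy2+Eif2s3y arrays. Probe ILMN_1245289 read 4.89, 4.92 and 6.10 in Zfy2+Eif2s3y, against 4.61, 4.49 and 4.52 in Zfy2-nf and 4.62, 4.78 and 4.28 in XX. It was detected on all 3 Zfy2+Eif2s3y arrays, with detection p of 0.0192, 0.0288 and 0.00321, and on none of the 6 control arrays, where the lowest was 0.0769. The third array stood more than 1 log2 unit above the other Zfy2+Eif2s3y arrays. The change was 0.75 ± 0.214 (log2, SE; limma, adjusted p = 0.0362). The probe was detected on 4 arrays in all and entered the tests only through the Zfy2+Eif2s3y arrays, where it is high. With no detection filter it did not pass (limma, adjusted p = 0.0644), and with a detection p under 0.01 it was not kept. Since the probe was not above background in the controls, the fold is a bound, the Zfy2+Eif2s3y mean against the mean of the control arrays, each taken at the probe's value there or at the lowest value of any detected probe, whichever was higher. By that bound the mean of Pmaip1 was at least 1.37-fold higher, and without the third array at least 1.04-fold. The bound describes these arrays and carries no sampling error. The 95% interval of the change, 0.30 to 1.21, reaches below it. The change was 0.30 without background correction and 0.33 in the authors' matrix, both under the bound of 0.45 on the log2 scale, so the bound holds only for the background-corrected values.

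The second Pmaip1 probe, ILMN_2670625, read 4.79, 4.92 and 6.05 in Zfy2+Eif2s3y, against 4.69, 4.58 and 4.33 in Zfy2-nf and 4.56, 4.70 and 4.57 in XX. Again the third array was the highest, and all 3 lay above the controls. The change of 0.68 ± 0.227, with an interval of 0.20 to 1.16, did not pass (limma, adjusted p = 0.0721). The bound on the means, at least 1.32-fold, was at 0.00 on the log2 scale without the third array. The change of this probe was 0.26 without background correction and 0.29 in the authors' matrix. Without the third Zfy2+Eif2s3y array the changes were 0.35 on ILMN_1245289 (limma, adjusted p = 0.201) and 0.28 on ILMN_2670625 (adjusted p = 0.404). With slide as a fixed block the first probe was at 0.72 (limma, adjusted p = 0.15), and over all alternatives it was called in 10 of 22.

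In Zfy2 against Zfy1-hi the Pmaip1 values overlapped. ILMN_1245289 read 4.49, 4.72 and 5.02 in Zfy2, with the third array detected, against 4.79, 4.48 and 4.70 in Zfy1-hi. ILMN_2670625 read 4.94, 5.01 and 5.40 in Zfy2, against 5.15, 4.68 and 4.54 in Zfy1-hi, a change of 0.32 with an interval of -0.23 to 0.88. Neither probe passed there, in Zfy1-lo or in Zfy2-nf. The remaining Pmaip1 probe was detected on 1 array.

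Bbc3 (Puma) and Bid are the remaining BH3-only members, and neither was called in any of the 4 comparisons by limma. Bbc3 probe ILMN_2690620 was dim and was detected on 16 arrays. It read 5.47, 5.10 and 5.59 in Zfy2+Eif2s3y, against 4.96, 5.35 and 5.10 in Zfy2-nf and 5.56, 4.45 and 5.23 in XX, which overlap (0.28 ± 0.194, adjusted p = 0.423). In Zfy2 it read 5.43, 5.09 and 5.30, against 4.74, 4.99 and 5.08 in Zfy1-hi. These arrays did not overlap, by a margin of 0.01, and the change of 0.33 ± 0.224 did not pass (adjusted p = 0.475). Its other 2 probes were detected on 2 and 0 arrays.

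Bid, which links death receptors to mitochondria once a caspase has cut it, showed its largest difference in Zfy1-lo. Probe ILMN_2757287 read 7.97, 7.72 and 7.96 in Zfy1-lo, against 7.46, 7.17 and 7.19 in XX. All Zfy1-lo arrays were above all XX arrays, and the change was 0.61 ± 0.173 with an interval of 0.25 to 0.98 (limma, unadjusted p = 0.00264, adjusted p = 0.434), so it did not pass over all probes. In Zfy2+Eif2s3y Bid read 7.25, 7.62 and 7.26, against 7.31, 8.01 and 7.34 in Zfy2-nf and the XX values above, a change of -0.04 with an interval of -0.35 to 0.28. Zfy2 oocytes read 7.34, 7.55 and 7.42 for Bid, against 7.59, 7.69 and 7.52 in Zfy1-hi, a change of -0.16 with an interval of -0.53 to 0.20.

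Bak1, the only pore former with a probe, was detected on 1 of 18 arrays, a Zfy1-lo array at 4.81 with a detection p of 0.047. Its other arrays read 4.26 to 4.73 with detection p up to 0.956, so ILMN_2945835 gives no change for Bak1.

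**Figure D2:**
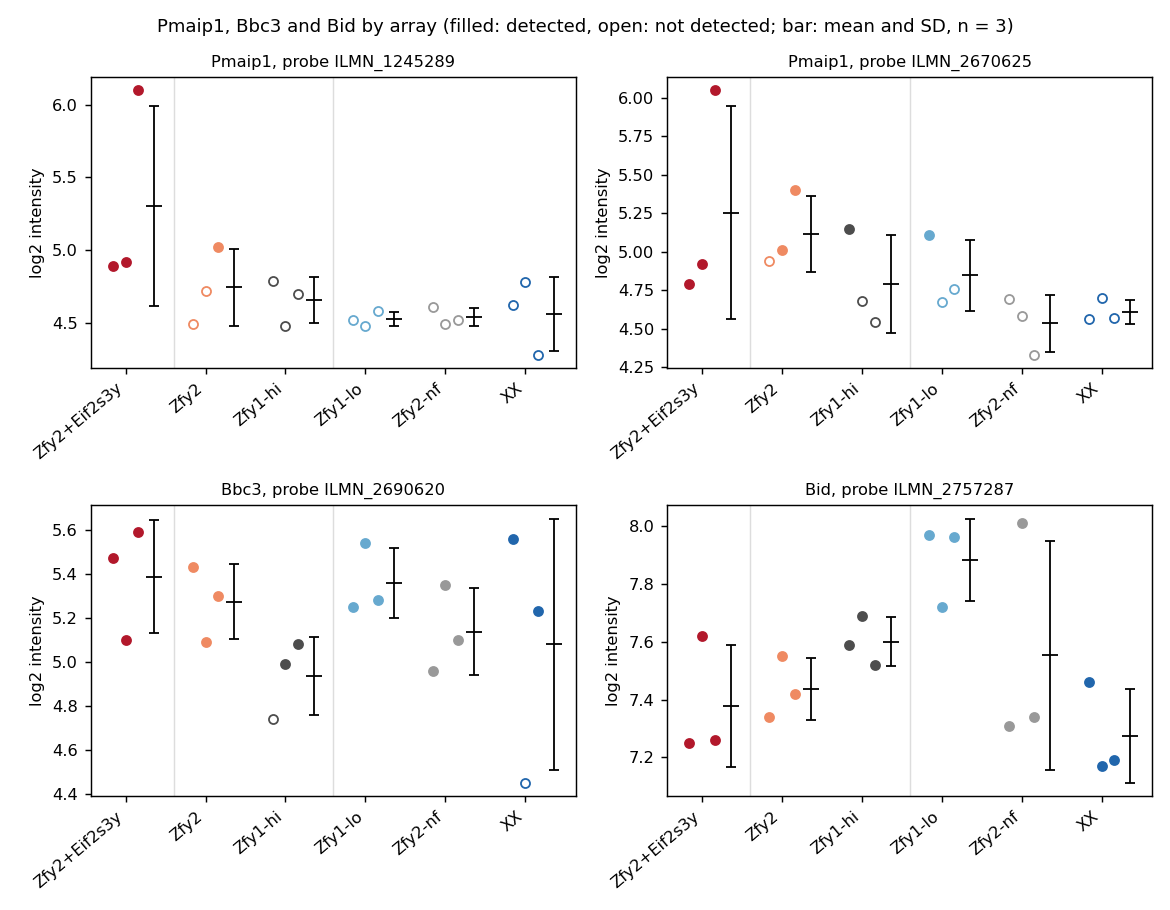
Log2 intensity of the tested probes of Pmaip1, Bbc3 and Bid on each array by genotype; filled points were detected, open points were not, and bars are the mean and SD (n = 3). On both Pmaip1 probes the third Zfy2+Eif2s3y array, at 6.10 and 6.05, lies apart from the other arrays, and the 3 Zfy1-lo arrays of Bid lie above the 3 XX arrays.

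Among the anti-apoptotic members, Bcl2l1 (Bcl-x) had the widest spread of genotype means and was called in none of the 4 comparisons by limma. Probe ILMN_2647885 read 8.10, 8.14 and 8.12 in Zfy2+Eif2s3y, 9.17, 9.25 and 8.89 in Zfy2, 9.22, 9.11 and 9.10 in Zfy1-hi, 8.73, 8.65 and 8.72 in Zfy1-lo, 8.50, 8.95 and 8.34 in Zfy2-nf, and 8.32, 8.05 and 8.33 in XX. The batch 2 arrays were all at or above 8.89, and of batch 1 only the second Zfy2-nf array reached that level, and here genotype and batch cannot be told apart. Within batch 1, Zfy1-lo lay wholly above XX, at 0.46 ± 0.148 (unadjusted p = 0.00636, adjusted p = 0.515). Zfy2-nf did so only narrowly, with its lowest array at 8.34 and the highest XX array at 8.33 (0.36 ± 0.148, adjusted p = 0.489). Zfy2+Eif2s3y lay below the mean of its controls by -0.29 ± 0.128 (adjusted p = 0.168) and overlapped them. In Zfy1-lo and Zfy2-nf against XX the other tested probes overlapped, at 0.28 and 0.06 on ILMN_2742557 and 0.39 and 0.33 on ILMN_2698430.

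Probe ILMN_2742557 of Bcl2l1 read 7.61, 7.44 and 7.58 in Zfy2+Eif2s3y, against 7.65, 8.33 and 7.79 in Zfy2-nf and 7.96, 7.76 and 7.87 in XX. All 3 arrays were below the 6 controls, by 0.04 at the closest, and the change of -0.35 ± 0.140 did not pass (limma, adjusted p = 0.131). Against Zfy1-lo as the control, a choice made after the data were seen, both probes passed, at -0.58 on ILMN_2647885 (limma, adjusted p = 0.0317) and -0.60 on ILMN_2742557 (adjusted p = 0.0401). Between Zfy2 and Zfy1-hi these probes were at -0.04 and -0.19, with intervals of -0.35 to 0.28 and -0.54 to 0.15. The third probe, ILMN_2698430, ranged from 7.25 to 9.38 and spread widely within genotypes, with 7.70, 7.75 and 9.38 in Zfy1-lo. The fourth was detected on no array.

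Bcl2l10 (Diva), a family member expressed mainly in oocytes, was detected on all 18 arrays and hardly varied. ILMN_2839758 stayed between 11.06 and 11.47 and ILMN_1215546 between 11.03 and 11.59. In Zfy2+Eif2s3y the changes were 0.06 and 0.07, with intervals of -0.15 to 0.27 and -0.16 to 0.30. Between Zfy2 and Zfy1-hi they were 0.17 and 0.00, with intervals of -0.07 to 0.41 and -0.26 to 0.26. These intervals leave room for changes of up to about 0.4 on the log2 scale.

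Mcl1, a short-lived anti-apoptotic protein, was detected on all 18 arrays by its 1 probe, ILMN_1216732. It read 8.60, 8.79 and 8.73 in Zfy2+Eif2s3y, against 8.79, 7.79 and 9.01 in Zfy2-nf and 8.14, 8.29 and 8.70 in XX. The controls spanned the Zfy2+Eif2s3y values, and the change was 0.25 ± 0.223 (limma, adjusted p = 0.542). In Zfy2 it read 8.76, 8.67 and 8.55, all above the 8.38, 8.21 and 8.18 of Zfy1-hi. That change of 0.40 ± 0.257 did not pass (limma, adjusted p = 0.451).

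Bcl2 itself was near background in these oocytes. Of its 9 probes, 3 were tested, and the best of them, ILMN_1243345, was detected on 13 arrays between 4.37 and 5.71. The other 2 tested probes were detected on 6 and 5 arrays, and the 6 untested probes on at most 2. The changes of the 3 tested probes in Zfy2+Eif2s3y were 0.02, -0.21 and -0.17, and none passed in any of the 4 comparisons.

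**Figure D3:**
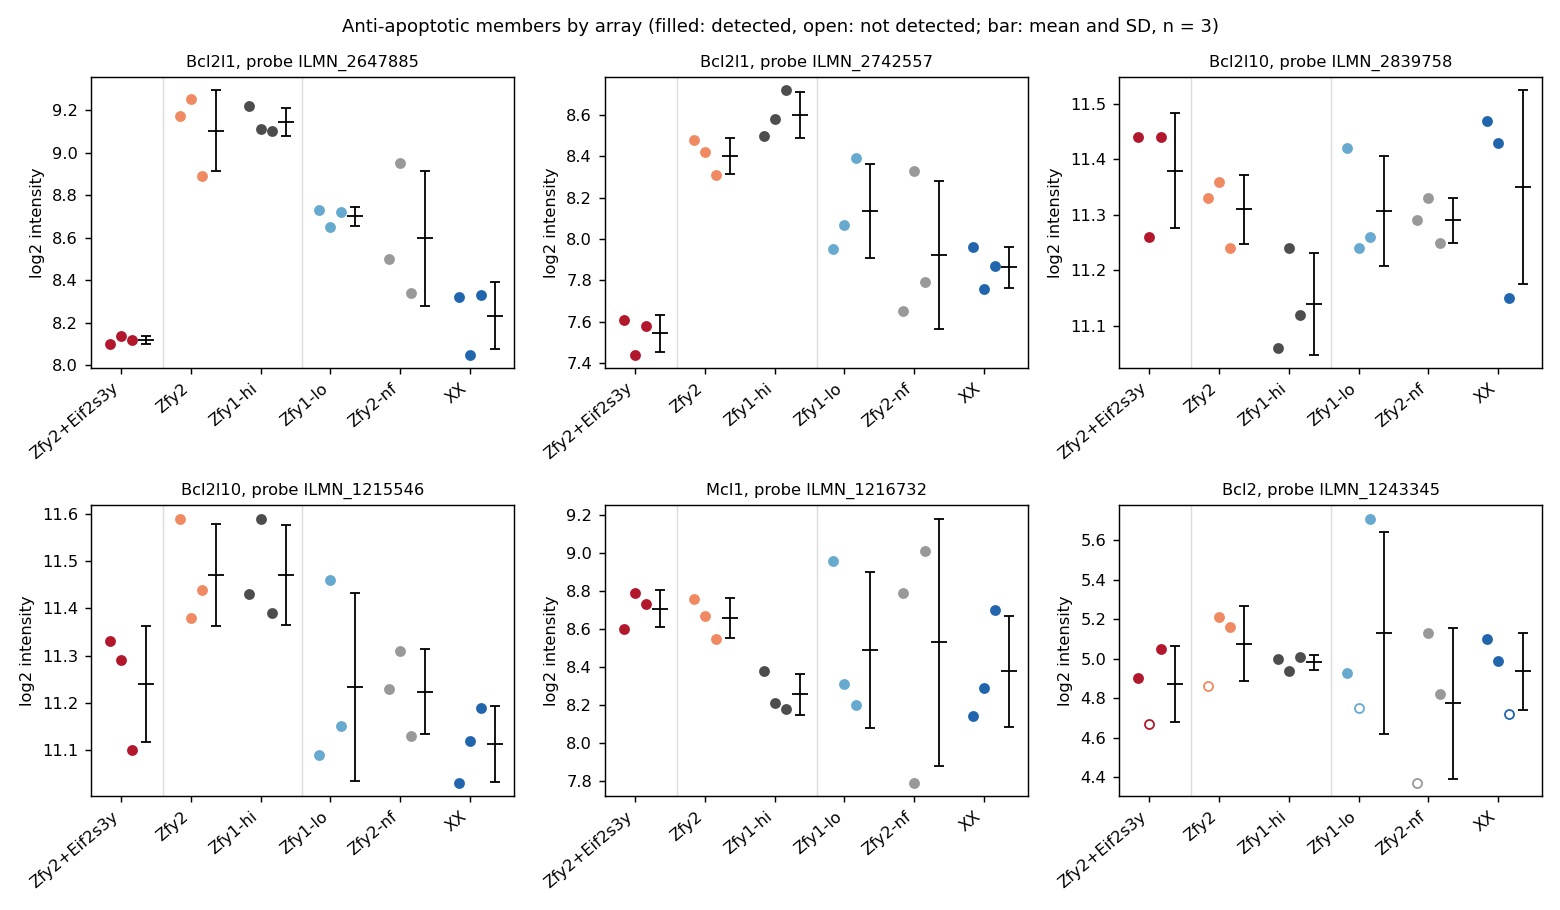
Log2 intensity of 6 probes of the anti-apoptotic members on each array by genotype; filled points were detected, open points were not, and bars are the mean and SD (n = 3). The 2 Bcl2l1 probes drawn are higher on the Zfy2 and Zfy1-hi arrays of batch 2 than on most batch 1 arrays. The third tested Bcl2l1 probe, ILMN_2698430, is not drawn and does not show this, with its lowest array in Zfy2 (7.25) and its highest in Zfy1-lo (9.38). Bcl2l10 stays between 11.03 and 11.59, and Bcl2 lies near background.

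Counted over probes, in Zfy2+Eif2s3y against XX and Zfy2-nf 1 of the 16 member probes was called higher (Pmaip1) and 2 lower (both Bcl2l11), and 13 were not called. With no detection filter the counts were 0 higher and 2 lower. Over all tested probes 9.14% were called in this comparison, 4.19% higher and 4.95% lower. The median change was -0.11 over the member probes and -0.01 over all probes. In Zfy2 against Zfy1-hi 0 member probes were called higher, 1 lower (Bcl2l11) and 15 not at all, against 5.66% of all probes called, 2.42% higher and 3.24% lower. Probes of 1 gene are not independent, so the lower calls stand for Bcl2l11 alone in both comparisons. The annotation gives ILMN_2590638 and ILMN_3157568 different transcript records of Bcl2l11, and only ILMN_3157568 was called in both comparisons.

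Neither of the other comparisons called a member probe. In Zfy1-lo against XX limma called 0 of 16, with 2 at an unadjusted p under 0.05 (Bid and 1 Bcl2l1 probe), and in all 0.00418% of probes. The same 2 probes were those whose arrays did not overlap, against 11.2% of all probes. In Zfy2-nf against XX limma called 0 of 16, with 1 at an unadjusted p under 0.05 (a Bcl2l1 probe), and 0.0292% of all probes. That probe was also the 1 whose arrays did not overlap, against 12.1% of all probes. At an unadjusted p under 0.05 the share of all probes was 7.26% in Zfy1-lo and 8.78% in Zfy2-nf. With 3 arrays on each side the smallest p of an exact permutation test is 0.1, and limma reaches smaller values by sharing the spread among probes.

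Arrays of the compared groups did not overlap for 6 of 16 member probes in Zfy2+Eif2s3y (2 higher, 4 lower), where 13.2% of all probes did not (6.23% higher, 6.99% lower). In Zfy2 against Zfy1-hi the count was also 6 (2 higher, 4 lower), against 25.7% of all probes (12.9% higher, 12.8% lower). All 3 tested Bcl2l11 probes were among the lower ones in both comparisons, and 1 Bcl2l1 probe was the fourth in each. The 2 higher probes were both of Pmaip1 in Zfy2+Eif2s3y, and of Mcl1 and Bbc3 in Zfy2 against Zfy1-hi. Pmaip1 probe ILMN_1245289 entered the tests only through the Zfy2+Eif2s3y arrays, so the filter favoured its place in this count. Several of these probes share a gene, so the counts are not counts of genes.

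**Figure D4:**
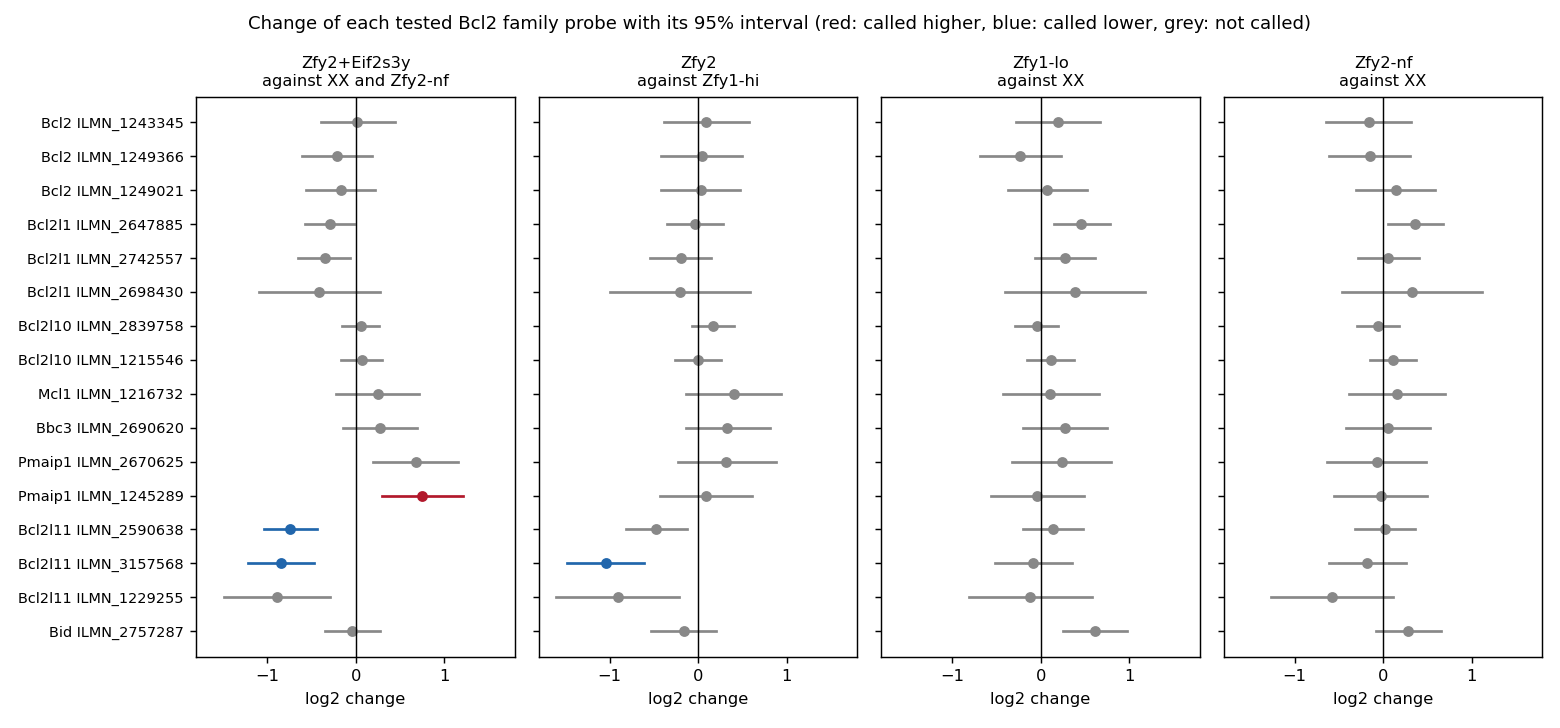
Log2 change of each of the 16 tested member probes with its 95% interval in the 4 comparisons, with called higher in red, called lower in blue and the rest in grey. The 3 Bcl2l11 probes lie left of 0 in both Zfy2 comparisons, and the 2 called lower in the first comparison are Bcl2l11.

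Pro-apoptotic members were weighed against anti-apoptotic ones by centring each gene, through its brightest tested probe, on its control arrays (Zfy2-nf and XX in batch 1, Zfy1-hi in batch 2). The mean over Bbc3, Pmaip1, Bcl2l11 and Bid was then set against the mean over Bcl2, Bcl2l1, Bcl2l10 and Mcl1, without a test. The balance was -0.07, -0.06 and 0.24 in Zfy2+Eif2s3y, a mean of 0.04 ± 0.17 (log2, SD, n = 3), against 0.00 ± 0.19 in Zfy2-nf and 0.00 ± 0.09 in XX. The third array, the one high in Pmaip1, was the only Zfy2+Eif2s3y array above 0. The mean was -0.08 without background correction and -0.07 in the authors' matrix, so its sign is not settled. Pmaip1 entered this mean through ILMN_2670625, which was not called, and not through the called ILMN_1245289. The change of ILMN_2670625 has the opposite sign to that of Bcl2l11.

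In Zfy2 the balance was -0.14, -0.26 and -0.05, a mean of -0.15 ± 0.10, against 0.00 ± 0.03 in Zfy1-hi. All 3 Zfy2 arrays were below all 3 Zfy1-hi arrays, the lowest of which was at -0.04. The pro-apoptotic mean was at 0.01 and the anti-apoptotic mean at 0.16 there, with Mcl1 among the anti-apoptotic genes at 0.40. In Zfy1-lo the balance was 0.04, 0.28 and 0.09, a mean of 0.14 ± 0.13, with the pro-apoptotic mean at 0.28 and the anti-apoptotic mean at 0.14, against 0.00 ± 0.09 in XX. It was 0.07 without background correction and 0.08 in the authors' matrix. The Zfy1-lo and XX arrays overlapped.

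**Figure D5:**
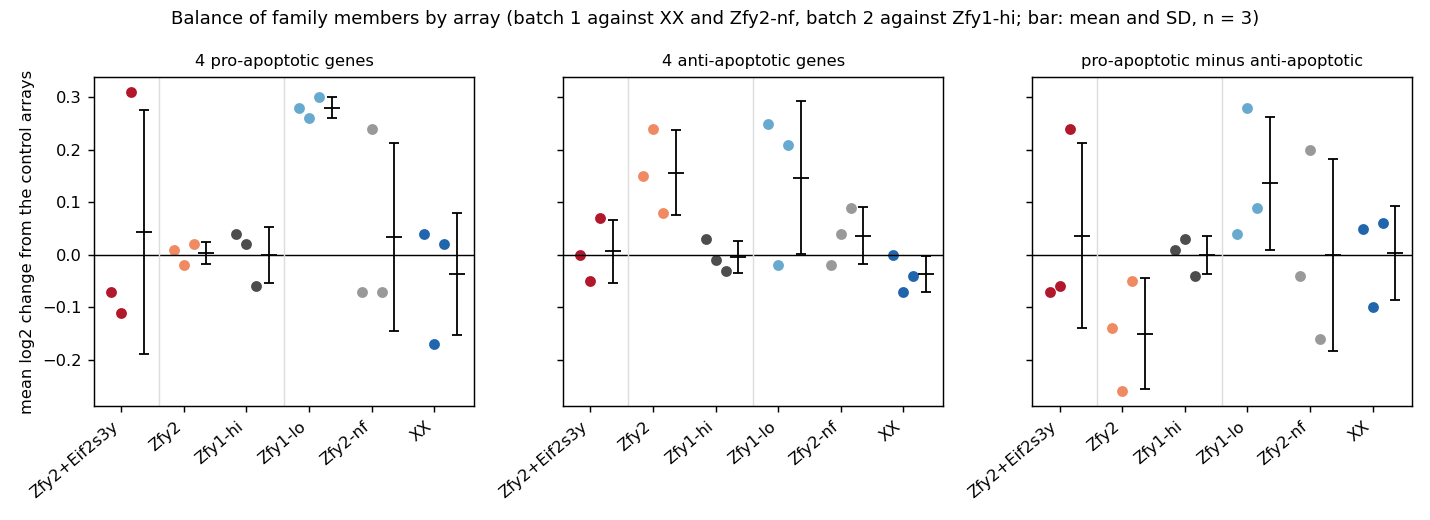
Mean log2 change from the control arrays over the 4 pro-apoptotic genes, over the 4 anti-apoptotic genes, and their difference, on each array by genotype, with bars for the mean and SD (n = 3). The difference lies between -0.26 and 0.28 on all arrays, and in Zfy2 it is below 0 on all 3.

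Further family members and their partners were counted over lists. Of 16 other Bcl2 family genes, 15 had a probe and 8 were measured, and 1 was called lower in each of the Zfy2 comparisons, with 7 not called. Of all 12184 genes measured, 6.08% were higher and 6.85% lower by the same count in Zfy2+Eif2s3y, and 3.42% and 4.65% in Zfy2 against Zfy1-hi. A gene with several probes has more chances of a call, and nothing particular to the list is read from 1 call in 8. The gene called was Bcl2l15 (Bfk), a divergent member, in both comparisons. Its probe ILMN_1257368 read 6.19, 6.21 and 6.05 in Zfy2+Eif2s3y, against 6.82, 7.21 and 6.96 in Zfy2-nf and 6.61, 7.18 and 6.83 in XX, and the change was -0.78 ± 0.158 (limma, adjusted p = 0.0051). In Zfy2 it read 5.80, 6.08 and 5.49, against 6.91, 7.23 and 7.32 in Zfy1-hi, and the change was -1.36 ± 0.182 (adjusted p = 3.04e-04). The groups did not overlap in either case. The list's median change was -0.04 in the first comparison and -0.17 in the second.

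Downstream of the membrane, 15 of 18 genes of the mitochondrial death pathway had a probe and were measured. In Zfy2+Eif2s3y 4 of them were called higher, 1 lower and 10 not, with a median change of 0.14, against the 6.08% higher and 6.85% lower of all genes. Apaf1, the scaffold of the apoptosome that activates caspase 9, was lower at -1.03 ± 0.166 on ILMN_2466335 (limma, adjusted p = 9.92e-04) and -0.90 ± 0.108 on ILMN_3143577 (adjusted p = 7.06e-05). ILMN_3143577 read 6.42, 6.43 and 6.63 in Zfy2+Eif2s3y, against 7.06, 7.22 and 7.34 in Zfy2-nf and 7.57, 7.60 and 7.57 in XX. In Zfy2 it read 6.46, 6.43 and 6.63, against 7.35, 7.07 and 7.18 in Zfy1-hi, where Apaf1 was the 1 gene called of 15 (-0.69 ± 0.124, adjusted p = 0.00332). On this probe the groups did not overlap in either comparison, and Apaf1 probe ILMN_1228561 was not called in either.

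The genes called higher in Zfy2+Eif2s3y were Cycs, cytochrome c, at 0.94 ± 0.190 on ILMN_1250564 (limma, adjusted p = 0.00525); Htra2, a mitochondrial protease, at 0.70 ± 0.189 on ILMN_1240553 (adjusted p = 0.0282); and the channels of the outer membrane Vdac1, at 0.40 and 0.75 on 2 probes (adjusted p = 0.0184 and 0.0388), and Vdac2, at 0.48 ± 0.119 (adjusted p = 0.0182). Cycs read 6.80 on 2 Zfy2+Eif2s3y arrays and more on the other, against 6.61, 6.00 and 6.29 in Zfy2-nf and 5.29, 5.76 and 5.63 in XX. The calls of Cycs and Htra2 each rest on 1 of their 3 probes. Htra2 read 7.01, 7.08 and 6.30 on its called probe in Zfy2+Eif2s3y, against up to 6.37 in XX, so its groups overlap. The XX arrays of Cycs were lower than those of Zfy2-nf, and none of the 6 controls reached the Zfy2+Eif2s3y values of Cycs. These genes also work in respiration and transport outside apoptosis.

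Among the upstream regulators of the family, 9 of 10 genes had a probe and 8 were measured; Trp53 had none and Atr was not detected. In Zfy2+Eif2s3y 1 was called higher and 7 were not, against 6.08% of all genes higher. This was Atm, the kinase that senses double strand breaks, at 0.77 ± 0.164 on ILMN_2783896 (limma, adjusted p = 0.00698). That probe read 5.47, 5.74 and 5.54 in Zfy2+Eif2s3y, against 4.82, 4.71 and 4.69 in Zfy2-nf and 5.05, 4.70 and 4.88 in XX, while Atm probe ILMN_1258206 overlapped, with 5.37, 5.06 and 5.25 against 5.10, 5.45 and 5.42 in Zfy2-nf and 5.35, 5.22 and 5.67 in XX. Atm probes ILMN_2492491 and ILMN_2647620 overlapped as well, so the call of Atm rests on ILMN_2783896 alone. In Zfy2 against Zfy1-hi 1 of 8 was called higher, against 3.42% of all genes. This was Ddit3 (Chop), a stress factor, at 0.60 ± 0.172 on ILMN_2652909 (limma, adjusted p = 0.0496). Its other probe, ILMN_2927373, was not called, with 9.86, 9.84 and 9.66 in Zfy2 against 9.54, 9.35 and 9.32 in Zfy1-hi. None of the genes of these 3 lists was called by limma in Zfy1-lo or in Zfy2-nf against XX. Of the oocyte markers, 2 of 15 were lower in Zfy2+Eif2s3y (Figla, at -0.68, and Kit, at -0.55 and -0.53 on 2 probes), against 6.85% of all genes, and 1 of 15 in Zfy2 against Zfy1-hi (Kit, at -0.75), against 4.65%.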

How the data were processed

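The deposited non-normalized table holds, per the file headers, a bead intensity for each of 45281 probes on 18 arrays and a detection p-value per probe and array. The authors' deposited series matrix holds a second, normalized intensity, whose normalization is not given in the sources used here. GenomeStudio is named per the submitters' processing notes. Per the labels' protocols, RNA was amplified and labelled with biotin. Intensities were background corrected with neqc in limma 3.58.1 (R 4.3.3), from the detection p-values, with an offset of 16, quantile normalized and put on the log2 scale. Probes with a detection p under 0.05 on at least 3 arrays were kept. A limma fit of 6 group means (12 residual degrees of freedom) gave two-sided p-values, adjusted by Benjamini-Hochberg over all 23951 kept probes, and called at an adjusted p under 0.05. It was tested on simulated data. Of the probes, 34885 had 1 symbol, 18 had several and 10378 had none, from GEO's platform annotation. All probes of the 10 genes are named, list genes where called, and the 5 probes most like the member called in both Zfy2 comparisons. The members and lists were chosen with earlier results of these data known. Correlations of same-numbered arrays' deviations were -0.146 to 0.109, so replicate numbers do not pair arrays. The number of arrays limits the precision.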

Additional observations from a re-analysis of the deposited data

How the results depend on the processing

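Of 1172 values of member probes under the alternatives, 1146 kept their side of the threshold, 58 of them uncalled with the other sign; 16 lost a call, 10 gained one and 0 called values changed sign. Over the alternatives Bcl2l11 in Zfy2+Eif2s3y was called in 23 of 24 on ILMN_2590638 (adjusted p 0.00109 to 0.169) and 21 of 23 on ILMN_3157568 (0.00528 to 0.0815), and in Zfy2 against Zfy1-hi in 16 of 17 (0.00279 to 0.0584); Pmaip1 ILMN_1245289 was called in 10 of 22 (0.026 to 0.42). In Zfy2+Eif2s3y against XX and Zfy2-nf the 2188 calls became 1379 with 1 probe per gene, 1111 with slide as a fixed block, 1148 against Zfy2-nf alone, 276 on slide 2 only, 1330 against Zfy1-lo (chosen after seeing the data) and 1173 to 2504 with an array left out; the 3 member calls became 1 with 1 probe per gene, 1 on slide 2 only and 2 to 4 with an array left out. In Zfy2 against Zfy1-hi the 1355 calls became 445 with slide position as a covariate (chosen after seeing the data) and 809 to 954 with an array left out; the 1 member call became 0 with 1 probe per gene, 2 with the compared groups only, 0 with position, and 1 with any array left out. In Zfy1-lo against XX the 1 call became 2 without background correction, 0 with 1 probe per gene, 0 with the compared groups only and 1 to 7 with an array left out. In Zfy2-nf against XX the 7 calls became 15 without background correction, 2 with median scaling, 12 with the authors' matrix, 1 with no detection filter and 3 to 15 with an array left out. The balance ran from -0.08 to 0.07 in Zfy2+Eif2s3y, from -0.21 to -0.15 in Zfy2 and from 0.07 to 0.15 in Zfy1-lo. The cause of these shifts was not tested, apart from the fewer arrays or probes some settings hold. With the replicate block, which pairs nothing here, the calls were 2056, 1253, 1 and 5 over all probes and 4, 1, 0 and 0 over members. A random slide block had a consensus correlation of 0.00302. Probes near background, such as those of Bcl2, Bak1 and Pmaip1, limit what can be seen of these members.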
